A study of Sus scrofa with 16 samples.

Results

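The genes described here encode nuclear subunits of the mitochondrial respiratory chain and of ATP synthase, with cytochrome c, measured in pig liver. They were chosen by a rule on names, set with earlier results of these data known. The rule takes probes by the gene name, or a symbol in the description, in the array files. Names begin with NDUFA, NDUFB, NDUFC, NDUFS, NDUFV, UQCR or ATP5, or with COX4 to COX8, or are an SDH subunit, CYC1 or CYCS. The NDUFAF assembly factors were left out. This gave 136 of the 43603 probes on the array, for 29 genes. A probe was tested where its signal stood well above background in 8 or more pigs, which 133 probes for 28 of the genes did, among 30097 probes and 4003 named genes in all. The genes fall into 7 of complex I, 3 of complex II, 3 of complex III with cytochrome c, 8 of complex IV and 8 of ATP synthase (complex V).

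The livers came from 16 pigs (Sus scrofa) of 20 kg body weight, fed ad libitum, 8 of a low-RFI line (RFIneg) and 8 of a high-RFI line (RFIpl). RFI, residual feed intake, is the feed an animal eats beyond what its growth and maintenance predict, so that low-RFI animals are the more feed-efficient. No other treatment is named in the labels. Each direction of RFI is represented by 1 line, so that RFI and any other way in which the lines differ cannot be told apart. Each pig had 1 array, so p-values measure the spread between pigs.

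The respiratory chain sits in the inner mitochondrial membrane. Complexes I and II take electrons from NADH and succinate, complex III passes them to the small soluble protein cytochrome c, and complex IV passes them on to oxygen, while ATP synthase uses the resulting proton gradient to make ATP. A few core subunits are encoded by mitochondrial DNA and the rest by the nucleus, among them the genes described here. Liver is rich in mitochondria, which there serve fatty acid oxidation, the urea cycle and gluconeogenesis as well as ATP supply.

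Each level below is a log2 signal minus the 75th percentile of log2 signals on that array, so a difference of 1 is a doubling, and levels of different probes are not comparable. The arrays sat on 4 slides of 4, each with 2 pigs of each line. The 16 arrays differed in that percentile (320.0 to 508 intensity units), in median background (29 to 40) and in the number of probes well above background (28579 to 34983). The scanner software marked the noise of 5 arrays as out of range, all of RFIpl pigs (numbers 1, 2, 3, 6 and 8). Of 11 hepatocyte markers, 8 were named on the array, and all 8 were well above background in every pig. In bulk tissue, fewer cells of a type and less RNA per cell cannot be told apart.

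The first comparison asks whether the subunit genes differed between the lines. None of the 133 member probes passed (limma, adjusted p under 0.05, where adjustment was Benjamini-Hochberg over all tested probes), against 0.00997% of all probes tested, which is 3 probes. At an unadjusted p under 0.05 the count was also 0 of 133 member probes, against 5.45% of all probes, and 0 of 28 genes, against 5.02% of all named genes. Where a gene has several tested probes, the one with the highest mean stands for it. On that basis 15 of 28 genes had a higher mean in RFIneg, against 54.5% of the 4003 named genes, and the median change (RFIneg minus RFIpl) was +0.01, against +0.02 over all named genes. The median turned to −0.06 under normexp background correction, −0.03 under quantile normalisation and −0.02 under cyclic loess, so no direction can be given for the group. The precision was a median SE of 0.10 for these genes, with 95% intervals of the changes reaching from −0.53 (NDUFB9) to +0.51 (ATP5A1). Adjusted p of the 28 genes lay between 0.963 and 0.998.

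**Figure D1:**
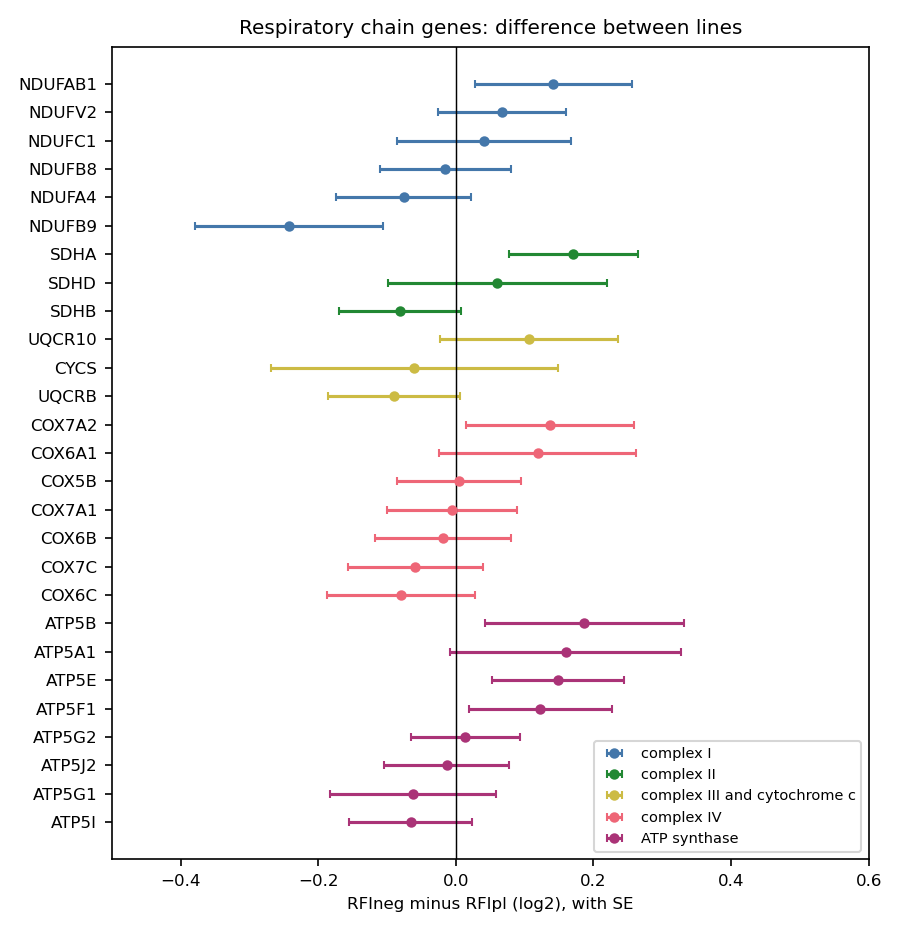
Difference between lines for the tested genes described, RFIneg minus RFIpl on the log2 scale (points) with the SE of the limma fit (bars), grouped by complex; n = 8 pigs per line. Changes run from −0.24 for NDUFB9 to +0.19 for ATP5B, on both sides of 0 in every complex, and none passed the test.

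In complex I, which oxidises NADH, 4 of 7 genes had a higher mean in RFIneg and the median change was +0.01. NDUFB9, an accessory subunit, ran from 4.62 over a median of 5.08 to 5.32 in RFIneg and from 4.72 over 5.35 to 5.66 in RFIpl pigs. The lines overlapped, with a change of −0.24 (SE 0.137, limma adjusted p = 0.967). NDUFA4, named as a complex I subunit but since assigned to complex IV, was lower in RFIneg for all 6 of its probes (−0.17 to −0.05, lowest limma adjusted p = 0.967). NDUFAB1, the mitochondrial acyl carrier protein, was at +0.14 (SE 0.114), or +0.06 without RFIneg pig 1, in which it was highest. NDUFV2, a core subunit of the NADH-oxidising arm, was at +0.07 (SE 0.0936). NDUFC1 (+0.04) and NDUFB8 (−0.02) lay within 0.05 of 0.

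Complex II, succinate dehydrogenase, gave the smallest p of any member. SDHA, its flavoprotein subunit, ran from 4.76 over 4.91 to 5.07 in RFIneg and from 4.31 over 4.78 to 4.93 in RFIpl pigs. Means were 4.90 ± 0.09 and 4.73 ± 0.19 (SD, n = 8 each), with a change of +0.17 (SE 0.0938, limma adjusted p = 0.963). The lowest SDHA value, 4.31, was that of RFIpl pig 6, and without this pig the change was +0.11. The other 3 SDHA probes gave changes up to +0.16, 1 of them at −0.00. SDHB, the iron-sulfur subunit, was at −0.08 (SE 0.0888) and SDHD, a membrane anchor, at +0.06 (SE 0.159; −0.02 without RFIpl pig 6).

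In complex III, UQCR10 was at +0.11 (SE 0.13, or +0.03 without RFIneg pig 8) and UQCRB at −0.09 (SE 0.0955). Both are small subunits that carry no redox centre. All 7 UQCRB probes were lower in RFIneg (−0.16 to −0.02), with no adjusted p below 0.979 in limma. Cytochrome c (CYCS) was at −0.06 (SE 0.208), or +0.02 without RFIneg pig 7. It had the widest spread between pigs of all members, described further on.

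Complex IV, cytochrome c oxidase, had 3 of its 7 tested genes higher and 4 lower in RFIneg, with a median of −0.01. COX7A2 (+0.14, SE 0.122) and COX6A1 (+0.12, SE 0.143) were on the higher side for all 5 and all 6 of their probes, at +0.05 and +0.02 without RFIpl pig 6 and +0.18 each without RFIneg pig 7. COX6C (−0.08, SE 0.108) and COX7C (−0.06, SE 0.0974) were on the lower side for all 3 tested probes each. COX5B (+0.00), COX7A1 (−0.01) and COX6B (−0.02) were near 0. These are nuclear subunits that surround the catalytic core.

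In ATP synthase the tested subunits of the catalytic head had higher means in RFIneg, with no call. ATP5B, the beta subunit, ran from 6.26 over 6.62 to 6.98 in RFIneg and from 5.68 over 6.56 to 6.72 in RFIpl, a change of +0.19 (SE 0.145, limma adjusted p = 0.979). ATP5A1, the alpha subunit, was at +0.16 (SE 0.168), ATP5E, the epsilon subunit, at +0.15 (SE 0.0958) and ATP5F1, subunit b of the stalk, at +0.12 (SE 0.104). All 14 probes of ATP5A1 (+0.06 to +0.26), all 9 of ATP5B, all 12 of ATP5F1 and both of ATP5E were higher in RFIneg; probes of 1 gene share the same RNA and are not replicates. Without RFIpl pig 6, in which ATP5B was lowest, the changes were +0.08 for ATP5B and +0.04 for ATP5A1, and without RFIneg pig 7 they were +0.24 and +0.25. ATP5I (−0.07) and ATP5J2 (−0.01), subunits e and f of the membrane part, and ATP5G1 (−0.06) were on the other side. ATP5G1 and ATP5G2 (+0.01) encode the same mature subunit c.

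The next comparison is between pigs rather than lines: whether subunit genes that must be built into the same complexes were high and low in the same animals. After each line's mean was removed, the 378 pairs of member genes had a median Pearson correlation of 0.477 over the 16 pigs, against 0.00483 for all pairs of named genes. Correlations above 0.8 made up 11.9% of the member pairs and 0.5% of all pairs. Several other gene lists, described further on, also kept together. Their median r within the list was 0.804 for the mitochondrial genome, 0.409 for the proteasome and 0.395 for the citric acid cycle. It was 0.381 for the cytosolic ribosome and 0.298 for the mitochondrial ribosome. For 5 mitochondrial regulators it was 0.139, with 40% of only 10 pairs below 0. The measured carriers and porins (−0.114, 15 pairs) and assembly factors (−0.266, 15 pairs, 6 of 47 listed genes) did not keep together. Among the members, pairs within a complex (median 0.421, 76 pairs) and pairs between complexes (median 0.492, 302 pairs) had medians close together. Correlations above 0.8 were more frequent within a complex (19.7%) than between complexes (9.93%). By complex the median ran from 0.229 (complex I, 21 pairs, NDUFA4 counted there by its name) to 0.59 (complex II, 3 pairs). In complex I every pair with NDUFAB1 or NDUFB9 was at 0.229 or below, and all other pairs were higher. NDUFAB1 had 1 dim probe, and another NDUFB9 probe had r = 0.86 with the mean of the other members. The low median of complex I, and with it the within-complex median, thus depends on these probes. All pairs share the same 16 arrays, their scaling and the same RNA, so these values are descriptions and no p is given. The median changed with the scaling: it was 0.269 under quantile normalisation, 0.32 under cyclic loess, 0.321 with slide means removed, 0.661 under normexp and 0.688 when arrays were centred on their median. Over the same settings all named genes had a median of −0.00806 to 0.0686.

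**Figure D2:**
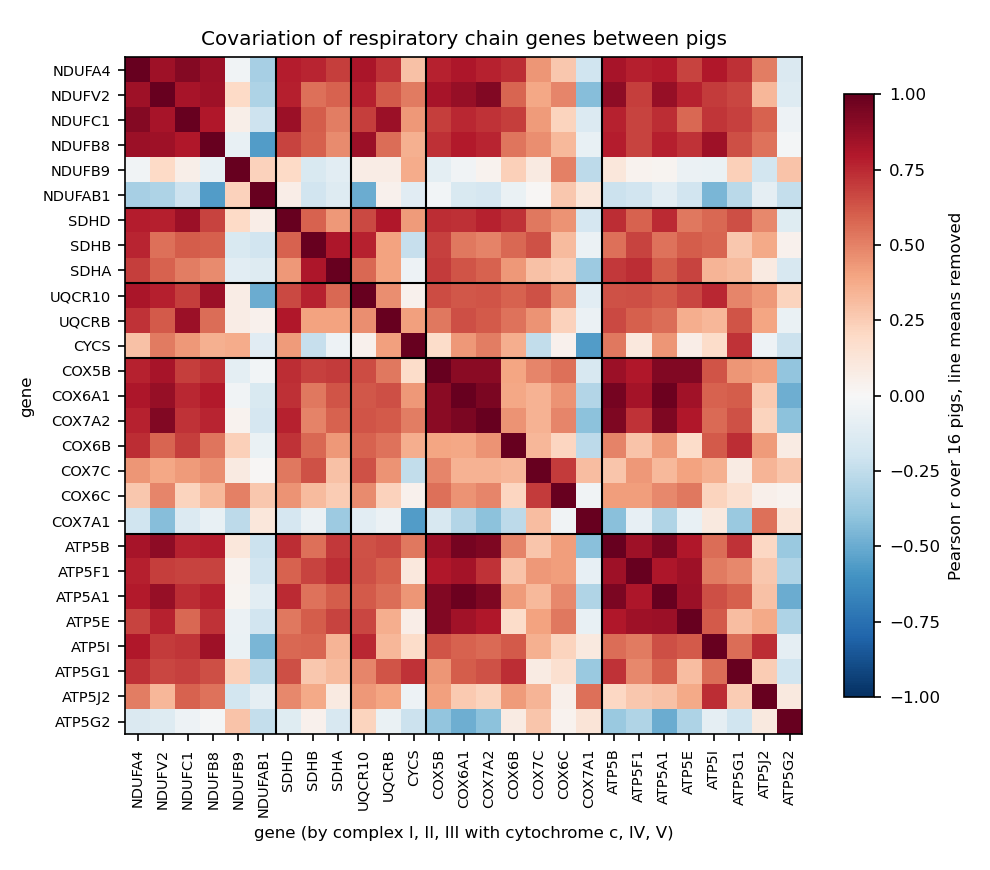
Pearson correlation over 16 pigs, line means removed, for every pair of the tested genes described; colour gives r from −1 (blue) to 1 (red) and black lines separate the complexes. Most cells are red, while the rows of NDUFB9, NDUFAB1, COX7A1 and ATP5G2 are mostly pale or blue and that of CYCS is partly so.

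The tightest pair joined different complexes. COX6A1 of complex IV and ATP5A1 of ATP synthase had r = 0.981 (Spearman's rho 0.965, 16 pigs), and r = 0.957 without the 2 pigs farthest from the median of COX6A1. COX6A1 with ATP5B (r = 0.955, rho 0.918) and with COX7A2 of its own complex (r = 0.943, rho 0.906) were also among the highest. Within their own complexes, NDUFV2 (r = 0.844 with the mean of the other complex I members, rho 0.832), SDHB (0.759, rho 0.703), UQCRB (0.576, rho 0.582), COX5B (0.882, rho 0.906) and ATP5B (0.902, rho 0.879) followed the rest most closely. Of the 28 genes, 21 had r above 0.5 with the mean of all other members and 11 had r above 0.8, while 3 were below 0.

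A few animals stood out in the shared pattern. The mean of the 28 genes lay 0.28 below its line mean in RFIpl pig 6, where 23 of 28 genes were low, and 0.22 below in RFIneg pig 7, where 26 were low. It lay 0.23 above in RFIneg pig 8, where 2 of 28 were below their line mean. The other 13 pigs lay between −0.11 and 0.14. RFIpl pig 6 and RFIneg pig 7 sat on the same slide. Their 75th percentiles of signal, 320.0 and 328 intensity units, were the lowest of the 16 arrays, and RFIpl pig 6 had the most probes well above background (34983) and the highest median background (40). With both pigs left out, the median correlation of members was 0.406, against 0.00445 for all named genes. Over 16 pigs the member mean had r = −0.749 with the median background of the array (rho −0.77, r = −0.689 without the 2 farthest pigs) and r = 0.576 with the 75th percentile of signal (rho 0.444, r = 0.1 without the 2 farthest). The part of these array measures in the shared pattern was not tested. The order of the extreme pigs also moved with the scaling, since RFIneg pig 7 was lowest under quantile normalisation and cyclic loess and RFIneg pig 4 under normexp, while RFIneg pig 8 was highest under all 6 scalings. RFIneg pig 8 shared a slide with RFIpl pigs 8 and 3 (both at 0.14) and RFIneg pig 4 (0.02). The median backgrounds of that slide, 29 to 30.5, were the lowest. With slide means removed RFIneg pig 2 was highest and RFIneg pig 8 was at 0.0995. With the means of same-numbered pigs removed RFIneg pig 6 was highest and RFIneg pig 8 was at 0.046. RFIpl pig 6 stayed lowest in both.

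**Figure D3:**
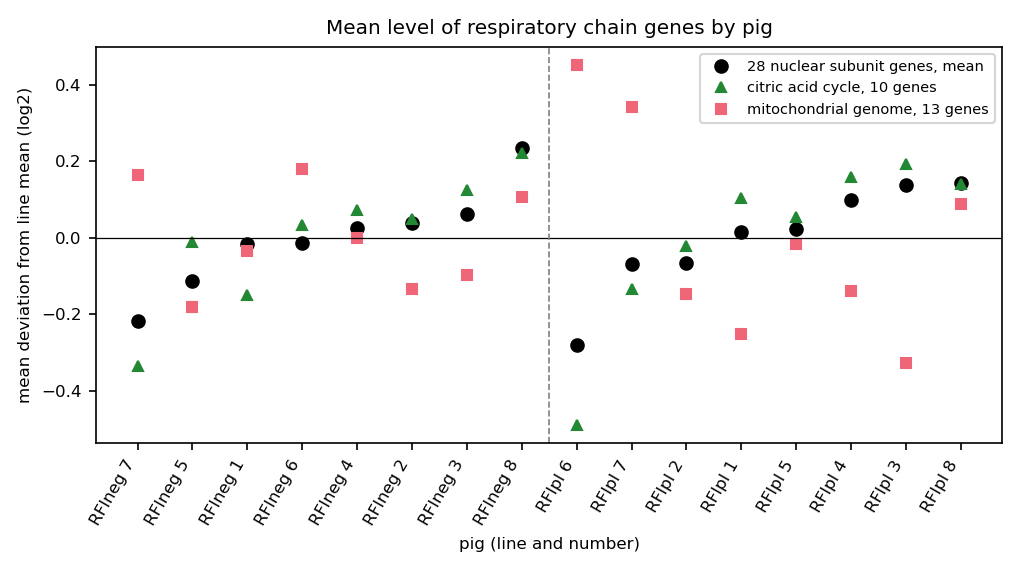
Mean deviation from the line mean (log2) by pig for the 28 subunit genes (black circles), 10 citric acid cycle genes (green triangles) and 13 genes of the mitochondrial genome (red squares), pigs ordered by the black circles within each line. RFIneg 7 and RFIpl 6 are lowest and RFIneg 8 highest for the subunit genes, and the red squares do not follow this order.

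ATP5A1 shows the shared pattern in single values. It was at 5.76 in RFIneg pig 7 and between 6.37 and 6.79 in the other 7 RFIneg pigs. In RFIpl it was at 5.43 in pig 6, at 5.93 in pig 7 and between 6.33 and 6.58 in the other 6. COX6A1 was likewise lowest in RFIneg pig 7 (6.73, the others 7.11 to 7.43) and in RFIpl pigs 6 and 7 (6.33 and 6.74, the others 7.02 to 7.33). SDHD was lowest in RFIpl pig 6 (4.46), RFIneg pig 7 (4.55) and RFIpl pig 1 (4.65), and its 7 probes had correlations of 0.748 to 0.988 with one another. Its residual SD, 0.323, was the largest in complex II. SDHB had the smallest there, at 0.135, as did NDUFV2 in complex I (0.15), UQCRB in complex III (0.156), COX5B in complex IV (0.138) and ATP5G2 in ATP synthase (0.101, the smallest of all members). The median over all named genes was 0.317.

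Isoforms of the same subunit followed the other members to different degrees. COX7A2 is the form of subunit VIIa found in liver and most tissues, COX7A1 the form of heart and skeletal muscle. COX7A2 had r = 0.89 with the mean of all other members, whereas COX7A1 had r = −0.28, for both of its probes close together (−0.28 and −0.26), and the 2 isoforms had r = −0.414 with each other (rho −0.253, r = −0.203 without the 2 farthest pigs). COX7A1 was well above background on all 16 arrays, at 5.55 to 5.87 in RFIneg and 5.44 to 5.98 in RFIpl, with its highest value in RFIpl pig 6, the pig in which most members were lowest. COX8H, the heart and muscle form of subunit VIII, was not well above background in any RFIneg pig and on 3 and 2 RFIpl arrays for its 2 probes, so it was not tested. Among 11 skeletal muscle markers 8 were tested, with a mean level of −1.70 to −1.34 in RFIneg and −1.90 to −0.56 in RFIpl, while MB, MYH2 and MYL1 were too dim. For subunit c of ATP synthase, ATP5G1 had r = 0.71 with the other members and ATP5G2 r = −0.226. NDUFAB1, whose protein also serves mitochondrial fatty acid synthesis, had r = −0.195. It was measured by 1 dim probe, with a mean of −1.29 in RFIneg and −1.43 in RFIpl.

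NDUFB9 stood apart through a pair of overlapping probes, whose sequences from the array files show where they differ. Both are listed on the same transcript, A_72_P680773 from base 608 and A_72_P473353 from base 617, and share 51 bases with 1 difference. In the 30-base windows below, counted from 1 at the 5′ end, the capital marks that difference, C30T.
A_72_P680773: aggacatacgcttgccctaataaagtaacC
A_72_P473353: aggacatacgcttgccctaataaagtaacT
The other probe, A_72_P574759, lies upstream from base 388 and shares no bases with them.
A_72_P574759: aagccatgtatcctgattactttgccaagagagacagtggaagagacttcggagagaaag

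A_72_P473353 was far lower in 3 pigs than in the other 13. It was at 3.64 and 3.36 in RFIneg pigs 4 and 6 and at 3.45 in RFIpl pig 5. In the other 6 RFIneg pigs it was at 4.53 to 4.96, and in the other 7 RFIpl pigs at 4.69 to 5.59, with 5.32, 5.59, 5.34 and 5.48 in RFIpl pigs 2, 4, 6 and 8. A_72_P680773 followed it over a narrower range (r = 0.941, rho 0.938, 16 pigs) and was also lowest in RFIneg pig 6 (4.62), RFIpl pig 5 (4.72) and RFIneg pig 4 (4.88). The upstream probe followed them less closely (r = 0.272 with A_72_P473353, rho 0.456, and r = 0.408 with A_72_P680773, rho 0.53). It was at 4.58, 4.84 and 4.91 in the same 3 pigs and had r = 0.86 with the mean of the other members, against 0.132 and 0.00188 for the overlapping pair. The change between lines was −0.49 for A_72_P473353, −0.24 for A_72_P680773 and −0.02 for A_72_P574759.

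**Figure D4:**
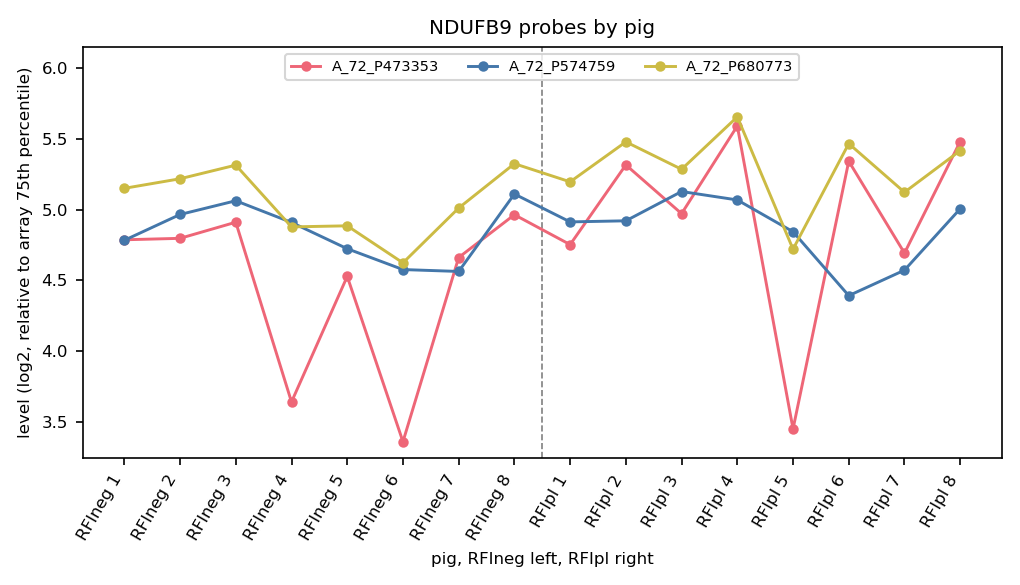
Level of the 3 NDUFB9 probes by pig (log2 relative to the array's 75th percentile); lines join the values of 1 probe and pigs have no order within a line. A_72_P473353 is lowest in RFIneg pigs 4 and 6 and RFIpl pig 5, A_72_P680773 is low in the same pigs over a narrower range, and A_72_P574759 follows another order.

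Other genes also held probes that did not go together. For NDUFB8, the 4 probes listed on 1 transcript had r = 0.819 to 0.905 with the mean of the other members. Its other 2 probes, A_72_P533639 and A_72_P242552, are listed on a different cDNA and had r = −0.2 and −0.099. The ATP5E probes A_72_P442475 and A_72_P188901 had r = 0.75 and −0.227 with the other members and −0.0462 with each other. The COX7C probe A_72_P192041, listed on another sequence than the other 3, was not well above background on any array. For these genes the values given are those of the brighter probe. By contrast the 9 ATP5B probes had correlations of at least 0.883 with one another, and the 6 of COX6A1 at least 0.879.

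By their brightest probes, cytochrome c varied more between pigs than any other member. Its probe A_72_P573694 had a residual SD of 0.441, and its 12 probes had residual SDs of 0.441 to 1.28, against a median of 0.234 for the other 121 member probes. In RFIneg pigs A_72_P573694 ran from 3.36 over 3.73 to 4.80, and in RFIpl pigs from 3.68 over 4.05 to 4.30, with the line means at 3.95 ± 0.57 and 4.01 ± 0.25 (SD, n = 8 each). The highest values were those of RFIneg pigs 2, 3 and 4 (4.80, 4.62 and 4.40). Its correlation with the mean of the other members was 0.372, and over its 12 probes 0.221 to 0.611.

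The pigs with high CYCS shared a series of sample numbers. The deposited names carry the numbers 1 to 8 or 55 to 62, with 4 pigs of each line in each series; the labels do not say what the numbers stand for, and this split was chosen after the data were seen. A_72_P592704, the CYCS probe with the smallest p by series, ran from 3.63 over 4.24 to 4.90 in pigs 1 to 8. In pigs 55 to 62 it ran from 2.90 over 3.27 to 3.73, so that the series overlapped only slightly for this probe. Means were 4.28 ± 0.47 and 3.34 ± 0.30 (SD, n = 8 each), a 1.91-fold higher level in the first series (change +0.93, SE 0.195, limma adjusted p = 0.0355 with line in the fit). The brightest probe A_72_P573694 overlapped more, at 3.39 to 4.80 in pigs 1 to 8 and 3.36 to 4.09 in pigs 55 to 62. All 12 CYCS probes were higher in the first series, by +0.54 to +1.62, and 6 of them passed, the only ones of 133 member probes to do so, against 1.93% of all 30097 probes (0.9% higher in the first series). The brightest probe A_72_P573694 was at +0.54 and did not pass (adjusted p = 0.0805), so that 0 of 28 genes passed on that basis against 1.92% of named genes. Of the 28 genes 20 had a higher mean in the first series, against 53.9% of named genes. The mean over the 12 probes, at +0.92 (SE 0.205), did pass (limma adjusted p = 0.0407). The call depended on the setting: 0 member probes passed under normexp, without a filter, with slide as a fixed block, with array noise as a covariate or with RFIneg pig 7 and RFIpl pig 6 left out. Leaving out single pigs gave 0 to 12 member probes, while the count over all probes went from 33 (without RFIpl pig 3) to 1692 (without RFIneg pig 1). It gave 0 without any one of RFIneg pigs 2, 3, 6 and 7 or RFIpl pigs 2, 3, 4 and 7, 1 without RFIneg pig 4 or 8, 2 without RFIpl pig 6, 3 without RFIpl pig 8, 5 without RFIpl pig 1, 7 without RFIneg pig 5, 9 without RFIpl pig 5 and 12 without RFIneg pig 1. The change of A_72_P592704 itself was +0.81 to +1.03 over 30 alternatives, with limma adjusted p of 0.014 to 0.0797. The interaction of line and series had limma adjusted p of at least 0.823 for every member probe.

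**Figure D5:**
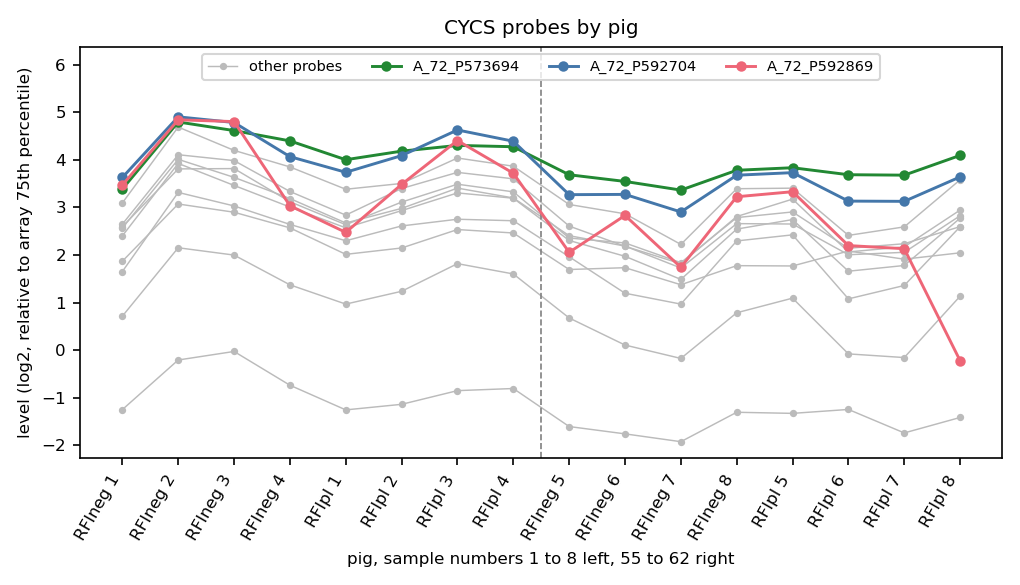
Level of the 12 CYCS probes by pig (log2 relative to the array's 75th percentile), pigs with sample numbers 1 to 8 left of the dashed line and 55 to 62 right; lines join the values of 1 probe and pigs have no order within a group. The probes are high and low in the same pigs, except that A_72_P592869 is at −0.22 in RFIpl pig 8.

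One CYCS probe departed from the rest in a single animal. A_72_P592869 was at −0.22 in RFIpl pig 8, where A_72_P592704 was at 3.64 and A_72_P573694 at 4.09, and at 1.74 to 4.84 in the other 15 pigs. It overlaps A_72_P573694 by 52 bases with 3 differences, which the 30-base windows show in capitals as A9G, C11G and T21C.
A_72_P573694: gctgtaccAtCagcacagatTtgtaaatta
A_72_P592869: gctgtaccGtGagcacagatCtgtaaatta
CYCS has processed pseudogene copies in mammals, and signal from near-identical copies cannot be told apart from that of the gene here. With this probe, the changes of CYCS between lines ranged from −0.10 to +0.56 over its 12 probes, and without it the range ended at +0.12.

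Outside the nuclear subunits, the 13 protein genes of mitochondrial DNA were all measured. They kept together between pigs, with a median r of 0.804 over 78 pairs. This median was 0.397 under quantile normalisation, 0.683 with the means of the sample-number series removed and 0.578 with the means of same-numbered pigs removed. The mitochondrial genes did not follow the nuclear subunits: the median r between the 2 sets was −0.265. It was 0.00785 with RFIneg pig 7 and RFIpl pig 6 left out, 0.0157 under normexp and −0.113 to −0.322 under the other 4 scalings. In RFIpl pig 6, where the nuclear members were lowest, the mitochondrial genes lay 0.45 above their line mean. By line 10 of 13 had a lower mean in RFIneg, with a median of −0.10 and no call, while 13 of 13 did under normexp, quantile normalisation or cyclic loess and 8 of 13 under median centring (median −0.06). ATP8 (−0.35, SE 0.175) and ND4L (−0.30, SE 0.17) had the smallest p, with limma adjusted p of 0.941 and 0.967. By sample-number series, a split chosen after the data were seen, 0 of 13 had a higher mean in pigs 1 to 8, against 53.9% of named genes. The median there was −0.26, with no call.

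Other mitochondrial lists followed the subunits to different degrees. The 10 measured citric acid cycle genes had a median r of 0.478 with the members, the 12 genes of the mitochondrial ribosome 0.364 and 19 proteasome genes 0.324, against 0.0121 for 31 cytosolic ribosomal protein genes (0.438 under normexp and 0.392 with median centring). The mitochondrial lists of regulators (0.224), carriers and porins (0.0768) and assembly factors (0.0629) lay below the proteasome. With RFIneg pig 7 and RFIpl pig 6 left out the first 4 medians were 0.274, 0.284, 0.142 and 0.188. By its brightest probe, no gene counted in these lists passed by line in limma. The assembly factor UQCC2, whose probes carry another name, is not in the counts and is described below. In the citric acid cycle 7 of 10 had a higher mean in RFIneg, with MDH2 at +0.33 (SE 0.195) and IDH2 at +0.19 (SE 0.114). In the mitochondrial ribosome 8 of 12 did, with MRPS31 at +0.30 and MRPL32 at −0.16. Of 6 carriers and porins 2 did, with UCP2 at −0.11 and SLC25A5 at −0.09. Among 5 regulators of mitochondrial DNA and its expression, MTERFD1 had the smallest p, at −0.32 (SE 0.0894, limma adjusted p = 0.475), and TFB1M was at +0.18 (SE 0.163). The proteasome (11 of 19 higher, PSMB10 at −0.35 and PSMB5 at +0.28) and the cytosolic ribosome (24 of 31 higher, RPL14 at +0.17 and RPS21 at +0.18) stood likewise without a call.

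Assembly factors build the complexes without staying in them. Of 6 measured under their symbols, 2 had a higher mean in RFIneg, with NDUFAF6 at +0.16 (SE 0.186) and NDUFAF4 at −0.10 (SE 0.235). The complex III assembly factor UQCC2 is listed in the probe descriptions under an older name. Its probe A_72_P302174 fell by 1.32 on the log2 scale in RFIneg (limma adjusted p = 0.00305, but 0.243 with array noise as a covariate), whereas 4 other probes of the gene were at +0.12 to +0.18. By series of sample numbers, NDUFAF4 (+0.71, limma adjusted p = 0.046) and the ADP/ATP carrier SLC25A5 (+0.60, adjusted p = 0.0355) were the only genes of these lists to pass. That is 1 of 6 assembly factors, 1 of 6 carriers and porins and 0 in each other list, against 1.92% of all named genes. Both were higher in pigs 1 to 8. CYCS was also higher there, but by its brightest probe it did not pass (limma adjusted p = 0.0805). The split was chosen after the data were seen. Through RefSeq accessions 3 further genes were named: the subunits ATP5O and NDUFB6, and ATP5S, which carries the prefix but is not a subunit. ATP5O, NDUFB6 and ATP5S were at −0.09, +0.02 and −0.12 by line, with r = 0.834, 0.852 and 0.0456 with the member mean.

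The named genes outside the group whose levels were most like the mean of the 28 members over 16 pigs were PGK1 of glycolysis (r = 0.939, rho 0.926), the lipoamide dehydrogenase DLD (0.926, rho 0.862), ATPIF1, the inhibitor of ATP synthase (0.916, rho 0.897), MRPL2 (0.911, rho 0.824) and RAB11A of vesicle traffic (0.902, rho 0.906). MRPS18B, MDH1, MRPL24, DLST and FAM158A followed, down to r = 0.871. Without the 2 pigs farthest from the median of the member mean, r for these 10 genes lay between 0.691 (DLST) and 0.889 (ATPIF1). They were picked as the highest of all named genes, so their values are high by choice.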

How the data were processed

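Total RNA of 16 pig livers was labelled with Cy3 and hybridised to 1-colour Agilent arrays, 1 per pig. Agilent Feature Extraction 10.7.3.1 made the scanner tables, per the file headers, and their processed signal is a linear intensity with background subtracted on that array and no scaling between arrays. The authors deposited a series table of log2 values, used here as an alternative. The submitters' processing notes name R 2.10.0. No genome was used, and probe positions are the base in the target sequence that the files list.

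Log2 processed signal was computed, spots marked as outliers were dropped, each array was centred on its 75th percentile and spots of a probe were averaged. Probes well above background on at least 8 of 16 arrays were fitted with limma 3.58.1 in R 4.3.3 (RFIneg minus RFIpl, no covariates, Benjamini-Hochberg adjustment, threshold 0.05). The fit was tested on simulated data. Correlations between pigs used levels with line means removed, and deviations are from the line mean. Named genes were called members, those with the smallest p, extreme residual SD or extreme correlation in each complex, isoforms, genes whose probes differ by over 0.5, the 10 genes most like the member mean and the 2 smallest p of each pathway list; the split by sample number and the genes singled out with it were chosen after their values were seen. The members and lists were chosen with earlier results of these data known. The values of 1 member, which is in the counts and medians, are not reported here. Pigs are the replicates; nothing in the labels gives litters. Plots were made in Python 3.11.15 (matplotlib 3.10.9).

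Alternatives were normexp (offset 50), quantile, cyclic loess and median scaling, the authors' values, other filters, outlier spots kept, slide, replicate number or sample-number series as a block, each slide alone, trend and array weights, means over probes, array noise as a covariate, and pigs left out singly. Leaving out the 5 noisy arrays or both low pigs of slide 1 was added after seeing the data.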

Additional observations from a re-analysis of the deposited data

Results flagged for a closer look

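Single pigs stood apart from the other 7 of their line in 6 of the results above, by the gap to the nearest pig relative to the range (Dixon's test). Chance flags about 1 in 20 groups; over all member probes 22 of 266 tests were past it, 13 of them in RFIneg pig 7 and 7 in RFIpl pig 6. ATP5A1 was at 5.76 and COX6A1 at 6.73 in RFIneg pig 7, below 6.37 and 7.11 in the next lowest pigs. SDHA was at 4.31 and COX5B at 6.59 in RFIpl pig 6, below 4.65 and 6.84 in the next lowest. NDUFB9 probe A_72_P473353 was at 3.45 in RFIpl pig 5, below 4.69, and NDUFAB1 was at −0.73 in RFIneg pig 1, above −1.18. The causes were not tested.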

How the results depend on the processing

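No member passed by line under any of 34 alternatives with a test. The median change of the 28 genes lay between −0.06 and 0.04 over 38 alternatives and was negative in 7 of them; normexp also moved the median change of all probes to 0.09. The median correlation of member pairs was 0.661 under normexp, 0.269 under quantile normalisation, 0.32 under cyclic loess, 0.688 under median centring and 0.321 with slide means removed, and 0.412 to 0.511 when single pigs were left out; the cause was not tested. By sample-number series, 0 member probes passed under normexp, with no filter, with slide as a fixed block, with array noise as a covariate or with RFIneg pig 7 and RFIpl pig 6 left out, and 0 to 12 when single pigs were left out (33 to 1692 of all probes). The labels do not say that pigs with the same number share anything, and the data did not meet the criterion for pairing, a correlation above 0.1 in every pair. Deviations of same-numbered pigs had correlations of 0.0475 to 0.395, above 0.1 in 6 of 8 pairs, and 5 of 8 RFIneg pigs correlated best with their own number, a hint from the data and not from the design. With the replicate number as a block 0 members passed, the median change was 0.01 and the median correlation 0.394. Limits are the 8 pigs per line, with 95% intervals that reached a median of 0.213 to either side of the change, and the scaling to 1 percentile per array, on which the size of the correlations depends.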
